A study of Mus musculus with 6 samples.

Results

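The 10 genes described here encode proteins that coat lipid droplets or govern the breakdown of the triglyceride inside them: the CIDE genes Cidea, Cideb and Cidec, the perilipins Plin2, Plin4 and Plin5, the lipase Pnpla2 and its regulators Abhd5, G0s2 and Hilpda. They were picked by symbol from the 16727 genes that the liver RNA-seq of male F1 mice lists once, by a rule that names no measured value, although it was written with earlier results of these data known. All 10 were found in the table. Liver RNA came from 3 conF1-M and 3 iAsF1-M mice, all C57BL/6 wild type males on normal chow that drank normal water throughout their lives. Before mating with unexposed females, the fathers of the iAsF1-M mice drank water with 250 ppb inorganic arsenic (iAs) for 6 weeks and the fathers of the conF1-M mice drank normal water, so the F1 mice themselves received no iAs in water. The livers were taken in the refed condition, after 7 h of refeeding. The age of these mice and the father and litter of each are not given in the sources used here, so a p-value measures only the spread between these mice. Levels are in FPKM, that is, fragments per kilobase of transcript relative to the library total, so that they can be set side by side between genes.

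Hepatocytes store fatty acids as triglyceride in lipid droplets, whose surface proteins decide how fast the store is built up and broken down. CIDE proteins gather at contacts between droplets and move lipid from smaller to larger ones, and perilipins cover the surface and limit the access of lipases. Pnpla2, the adipose triglyceride lipase or ATGL, removes the first fatty acid from triglyceride; Abhd5 activates it, and G0s2 and Hilpda inhibit it. Several of these genes, among them Plin2, Plin5, Cidec and G0s2, are known targets of the nuclear receptor PPARα, which is active in the fasted liver, while refeeding turns on the genes of fatty acid synthesis.

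The promoters were read for the element that PPARα binds with its partner RXR, and 3 stretches are shown because they hold it or a part of it. The sequences are those of RefSeq on GRCm38.p6, and 9 of the 10 genes had at least 1 promoter there that is used here, 12 promoters in all. The 250 bases before each start site were searched on both strands for this element, AGGTCA repeated in the same direction after 1 spacer base with up to 2 mismatches (called DR1), and for a single AGGTCA, which is also a part of that repeat. Capitals mark the match, and each stretch runs 5′ to 3′ on the strand of its gene. The Plin2 stretch lies at chr4:86670237-86670309 on the minus strand and its match to the repeat, which reads on the other strand, begins 225 bases before the start. The Plin5 stretch lies at chr17:56117678-56117753 on the minus strand with AGGTCA 170 bases before the start, and the Abhd5 stretch at chr9:122351512-122351587 on the plus strand with the same letters on the other strand 69 bases before it.
Plin2: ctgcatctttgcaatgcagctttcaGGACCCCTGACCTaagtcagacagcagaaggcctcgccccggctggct
Plin5: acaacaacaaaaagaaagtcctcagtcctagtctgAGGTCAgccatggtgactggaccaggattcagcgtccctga
Abhd5: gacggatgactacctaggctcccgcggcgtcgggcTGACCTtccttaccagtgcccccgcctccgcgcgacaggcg
Of all 32851 RefSeq promoters of the same length, 3.24% held the repeat and 14.02% held AGGTCA, against 1 and 3 of the 12 promoters of these genes. The promoters of Cidec and G0s2, the genes with the largest differences below, held neither in this window. A hypoxia element core, ACGTG, was found in 16.57% of all promoters and in 1 of these 12, that of Hilpda, 43 bases before the start, and the E-box CACGTG in 6.02% and in 0 of these 12. These matches describe letters and not binding. Abhd5, which shares the letters AGGTCA with Plin2 and Plin5, varied less across the livers than either. Any tie between the letters in this window and the levels of these genes was not tested.

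Pnpla2 carries a further sequence that bears on its measurement, since the study also assayed its mRNA by RT-qPCR in livers. Those values are not analysed here. The forward primer lies in exon 5 and the reverse primer in exon 7 of the transcript Pnpla2-201, at chr7:141458013-141458032 and chr7:141458597-141458617 of GRCm38 on the plus and minus strand, and they enclose 289 bases of spliced RNA.
Pnpla2 forward primer: ggatggcggcatttcagaca
Pnpla2 reverse primer: caaagggttgggttggttcag
Both primers were found in 3 of the 7 annotated Pnpla2 transcripts and in transcripts of 1 gene, whereas the FPKM of Pnpla2 is 1 value per gene.

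Before any comparison, the genes differed widely in their level in the conF1-M livers. Plin2, the main droplet coat of hepatocytes, stood highest at 301 ± 49.96 FPKM (SD, n = 3), followed by Cideb at 191 ± 3.84 FPKM, G0s2 at 83.1 ± 24.2 FPKM and Pnpla2 at 57.1 ± 2.41 FPKM. Plin5 was at 17.6 ± 2.72 FPKM, Abhd5 at 7.82 ± 0.637 FPKM and Cidec at 3.78 ± 0.578 FPKM, and Plin4, Hilpda and Cidea closed the order at 1.55 ± 0.490, 1.08 ± 0.334 and 0.137 ± 0.167 FPKM. Only the neighbours G0s2 and Pnpla2, and Plin4 and Hilpda, overlapped across conF1-M livers. In the iAsF1-M livers the mean of G0s2 was above that of Cideb, that of Cidec above Abhd5 and that of Hilpda above Plin4, but there the livers of each pair overlapped. Whole-liver RNA cannot tell fewer cells of a type from less RNA per cell.

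**Figure D1:**
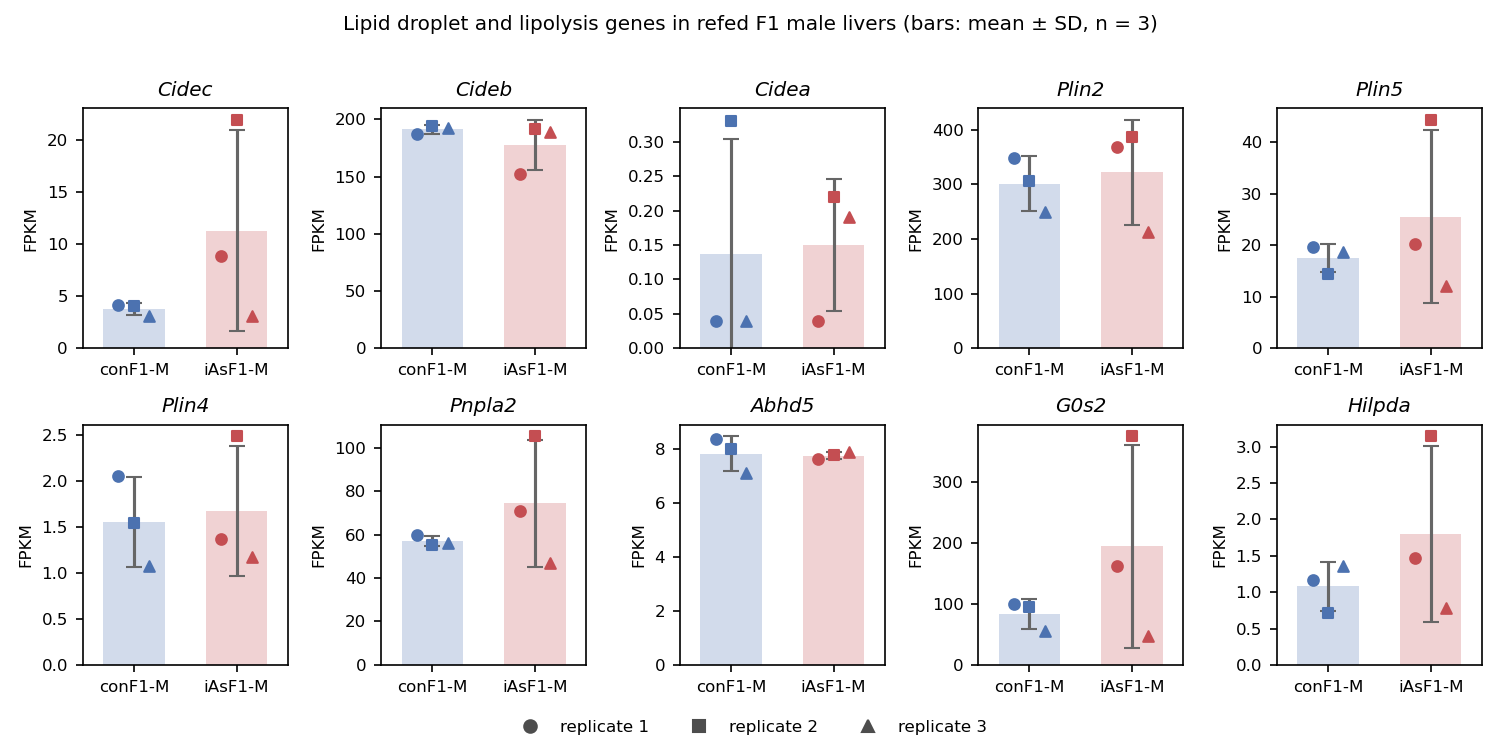
FPKM of the 10 genes in each liver, with a panel and a linear axis from 0 for each gene. Points are livers (circle, square and triangle for replicates 1, 2 and 3), bars the group mean and whiskers the SD (n = 3). The iAsF1-M 2 square is the highest point for 7 of the 9 genes other than Cidea, and in every panel the groups overlap.

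None of the lipid droplet and lipolysis genes passed the test between iAsF1-M and conF1-M livers. Of the 10 genes, 9 reached a mean of 1 FPKM and were tested, and Cidea did not. With limma and Benjamini-Hochberg adjustment over all genes tested, 0 of the 9 had an adjusted p under 0.05, beside 0.0619% of the 9695 genes tested, and 0 of the 9 had an unadjusted p under 0.05, beside 8.17% of genes. On the log2(FPKM + 1) scale 7 of the 9 lay higher in iAsF1-M, beside 30.4% of all genes tested. After quantile or median-ratio scaling 8 of the 9 did, as Abhd5 changed side. Without scaling the median log2 fold change of the 9 was 0.30, against -0.07 over all genes tested. The median over all genes was -0.004 with quantile and 0.0009 with median-ratio scaling, so the 30.4% does not apply to the scaled fits. The groups overlapped for all 9, while they did not overlap for 14.2% of all genes tested. The spread within iAsF1-M was wide. The highest iAsF1-M liver was over 2 times the lowest for 6 of the 9, beside 6.30% of genes tested, and the ratio of highest to lowest was larger within iAsF1-M than within conF1-M for 8 of the 9, beside 64.4% of genes. Within iAsF1-M the median of that ratio was 2.24 for the 9 genes and 1.24 for all genes, and within conF1-M it was 1.35 and 1.18.

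Cidec (ENSMUSG00000030278, chr6:113424634-113435760, minus strand of GRCm38), also called fat-specific protein 27, which enlarges droplets and whose mRNA is high in the fatty mouse liver, had the largest difference. It measured 4.14, 4.08 and 3.11 FPKM in conF1-M 1, 2 and 3 and 8.85, 21.95 and 3.15 FPKM in iAsF1-M 1, 2 and 3. The first 2 iAsF1-M livers were above every conF1-M liver and the third was among them, so the groups overlapped. The mean was 11.3 ± 9.64 FPKM (SD, n = 3) in iAsF1-M, 3.00 times the conF1-M mean, with a log2 fold change of 1.04 ± 0.52 (SE) and a 95% interval from -0.17 to 2.26 (limma, adjusted p = 0.616). iAsF1-M 2 was 6.97 times iAsF1-M 3.

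Cideb (ENSMUSG00000022219, chr14:55754050-55758458, minus strand), which in the mouse hepatocyte helps load lipid onto very low density lipoprotein, did not share that pattern although it belongs to the same family. Its levels were 187, 194 and 193 FPKM across conF1-M livers, against 152, 192 and 189 FPKM across iAsF1-M livers. iAsF1-M 1 was the lowest and the other 5 lay within a narrow range. The log2 fold change was -0.11 ± 0.11 (SE), with an interval from -0.38 to 0.15 (limma, adjusted p = 0.762). Exons of Cideb overlap those of Nop9 on the opposite strand, and the strand setting of the counting is not given in the sources used here, so reads from the overlap may not be told apart. The ratio of Cidec to Cideb was 0.0222, 0.0210 and 0.0161 in conF1-M and 0.0581, 0.115 and 0.0167 in iAsF1-M livers, which means that Cideb remained the more abundant of the 2 in every liver.

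Cidea (ENSMUSG00000024526), a CIDE gene known from brown fat, was near the limit of detection. It was listed at 0.040, 0.33 and 0.040 FPKM across conF1-M livers, against 0.040, 0.22 and 0.19 FPKM across iAsF1-M livers, which at the estimated depths corresponds to between 0.9 and 8.1 fragments. No difference was detectable at this depth. With no filter on low values its log2 fold change was 0.02 ± 0.11 (limma, adjusted p = 0.951).

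The 3 perilipins shared an order among the iAsF1-M livers, with iAsF1-M 2 the highest and iAsF1-M 3 the lowest of that group, but not among all 6. Plin2 (ENSMUSG00000028494, chr4:86648386-86670060, minus strand) was at 348, 306 and 249 FPKM across conF1-M livers, against 369, 386 and 212 FPKM across iAsF1-M livers. The iAsF1-M group thus held both the highest 2 livers and the lowest. The log2 fold change was 0.06 ± 0.24 (SE), with an interval from -0.50 to 0.62 (limma, adjusted p = 0.939), and Plin2 lay lower in iAsF1-M when conF1-M 3, iAsF1-M 1 or iAsF1-M 2 was left out.

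Plin5 (ENSMUSG00000011305, chr17:56111601-56117596, minus strand), which in oxidative tissues ties droplets to mitochondria and binds Pnpla2 and Abhd5, was at 19.6, 14.5 and 18.65 FPKM in conF1-M livers. In iAsF1-M livers it was at 20.2, 44.3 and 12.0 FPKM. A single liver, iAsF1-M 2, was far above the rest at 2.52 times the conF1-M mean, and iAsF1-M 3 was the lowest of the 6. The log2 fold change was 0.33 ± 0.40 (SE), with an interval from -0.58 to 1.25 (limma, adjusted p = 0.796), and without iAsF1-M 2 it was -0.15.

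Plin4 (ENSMUSG00000002831, chr17:56100591-56109803, minus strand), a perilipin best known from adipocytes, was low in every liver. It was at 2.05, 1.54 and 1.07 FPKM across conF1-M livers, against 1.37, 2.48 and 1.17 FPKM across iAsF1-M livers, with a log2 fold change of 0.05 ± 0.21 (limma, adjusted p = 0.939). The groups were interleaved. Plin4 and Plin5 are neighbours on chromosome 17, on the same strand and 1797 bases apart, yet iAsF1-M 2 was 1.60 times the conF1-M mean in Plin4 and 2.52 times in Plin5. An exon of Plin4 overlaps Hdgfl2 on the opposite strand. As a share of Plin2, Plin5 was 0.0563, 0.0473 and 0.0750 in conF1-M and 0.0549, 0.115 and 0.0567 in iAsF1-M livers, and thus highest in iAsF1-M 2.

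**Figure D2:**
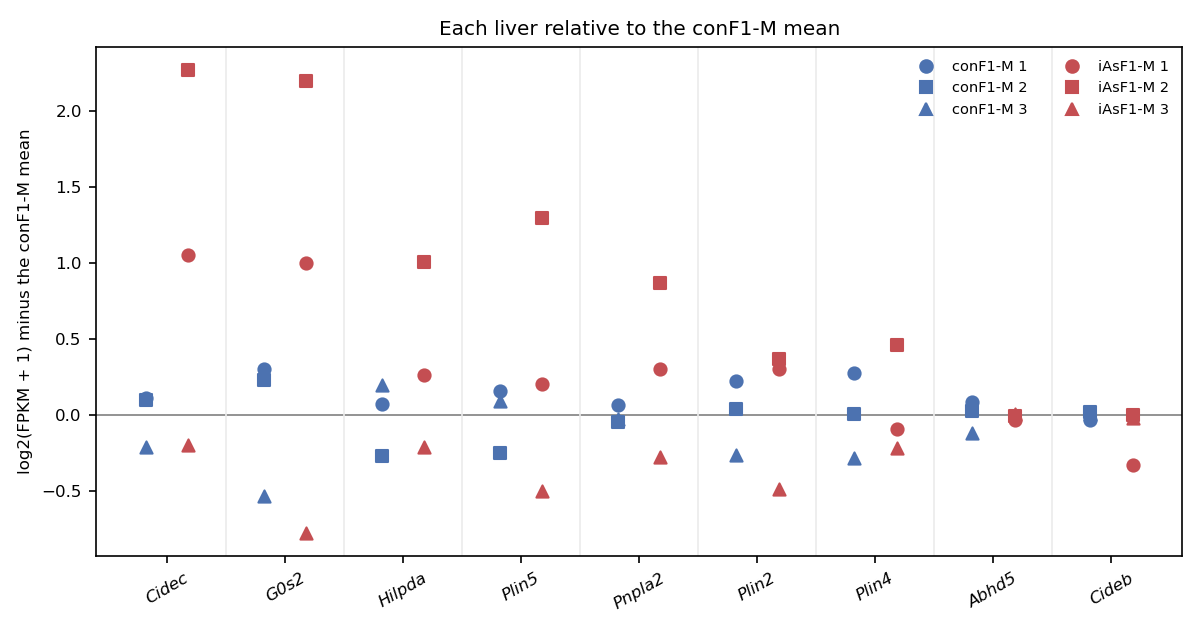
Each liver's log2(FPKM + 1) minus the mean of the 3 conF1-M livers, for the 9 genes tested, ordered by their log2 fold change. Blue points are conF1-M and red points iAsF1-M livers. iAsF1-M 2 reaches 2.27 in Cidec and 2.20 in G0s2, iAsF1-M 3 falls below 0 in both, and all points of Abhd5 lie between -0.12 and 0.09.

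The lipase Pnpla2 (ENSMUSG00000025509, chr7:141455198-141460743, plus strand) was the steadiest of these genes across conF1-M livers after Cideb. It was at 59.9, 55.4 and 56.1 FPKM there and at 70.7, 105 and 47.1 FPKM in iAsF1-M livers. iAsF1-M 1 and 2 were above, and iAsF1-M 3 below, every conF1-M liver. The mean was 74.3 ± 29.2 FPKM (SD, n = 3) in iAsF1-M, with a log2 fold change of 0.30 ± 0.25 (SE) and an interval from -0.28 to 0.88 (limma, adjusted p = 0.719).

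Abhd5 (ENSMUSG00000032540, chr9:122351608-122381524, plus strand), or CGI-58, the coactivator that Pnpla2 needs for full activity, had nearly the same level in all 6 livers. The values were 8.36, 7.99 and 7.12 FPKM across conF1-M livers, against 7.62, 7.76 and 7.87 FPKM across iAsF1-M livers. The iAsF1-M livers lay inside the range of the conF1-M livers. The log2 fold change was -0.01 ± 0.09 (SE), with the narrowest interval of the 9 genes, from -0.21 to 0.19 (limma, adjusted p = 0.976), and it was positive under both scalings named above. Across iAsF1-M livers Pnpla2 varied more than Abhd5, and across conF1-M livers less. The ratio of Pnpla2 to Abhd5 was 7.16, 6.93 and 7.88 in conF1-M and 9.28, 13.6 and 5.98 in iAsF1-M livers.

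G0s2 (ENSMUSG00000009633, chr1:193272161-193273217, minus strand), the small protein that binds and inhibits Pnpla2, had the widest range across the 6 livers of the 9 droplet and lipolysis genes tested, though not within conF1-M, where Plin4 and Hilpda varied more. It was at 99.55, 94.5 and 55.4 FPKM across conF1-M livers and at 162, 374 and 46.6 FPKM across iAsF1-M livers. iAsF1-M 2 was the highest liver and iAsF1-M 3 the lowest, 8.03 times apart, and the conF1-M livers lay between iAsF1-M 1 and iAsF1-M 3. The mean was 194 ± 166 FPKM (SD, n = 3) in iAsF1-M, 2.34 times that in conF1-M, with a log2 fold change of 0.81 ± 0.66 (SE) and an interval from -0.72 to 2.34 (limma, adjusted p = 0.713).

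Within iAsF1-M, lipase and inhibitor transcripts were high and low in the same livers, but not in proportion. The ratio of Pnpla2 to G0s2 was 0.602, 0.587 and 1.01 in conF1-M and 0.436, 0.281 and 1.01 in iAsF1-M livers, a mean of 0.734 ± 0.242 and of 0.576 ± 0.384 (SD, n = 3). The 2 livers with as much Pnpla2 as G0s2 came 1 from each group, and the lowest ratio belonged to iAsF1-M 2, the liver with the most Pnpla2. The difference between the means was smaller than the spread within either group.

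Hilpda (ENSMUSG00000043421, chr6:29272488-29275446, plus strand), a hypoxia-inducible inhibitor of Pnpla2, was low, at 1.17, 0.71 and 1.36 FPKM across conF1-M livers, against 1.47, 3.14 and 0.78 FPKM across iAsF1-M livers. Only iAsF1-M 2 stood clear of the others. At the estimated depths these values correspond to between 17.3 and 76.5 fragments. The log2 fold change was 0.35 ± 0.29 (SE), with an interval from -0.31 to 1.02 (limma, adjusted p = 0.713).

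The differences therefore rested on which iAsF1-M livers entered the fit. iAsF1-M 2 was the highest of the 6 livers for 7 of the 9 genes, beside 19.8% of all genes tested, and the iAsF1-M livers ran in the order 2, 1, 3 for the same number, beside 19.0%. The 9 genes are not independent of each other, so these shares are descriptions. Leaving out iAsF1-M 2 took the median log2 fold change of the 9 genes to -0.01, with Cidec at 0.43 and G0s2 at 0.11. Leaving out iAsF1-M 3 took it to 0.59, with Cidec at 1.66 (95% interval 0.94 to 2.38; limma, adjusted p = 0.0641), G0s2 at 1.60 (0.75 to 2.45; adjusted p = 0.106) and Pnpla2 at 0.59 (0.21 to 0.96; adjusted p = 0.147). Without that liver 0 of the 9 had an adjusted p under 0.05, beside 0.752% of 9704 genes, and 5 had an unadjusted p under 0.05 and were higher in iAsF1-M, beside 3.60% of genes. These 5 were Cidec, G0s2, Pnpla2, Plin5 and Hilpda. Each of the 6 livers was left out in turn and no label sets iAsF1-M 2 or 3 apart, so neither fit replaces that of all 6.

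**Figure D3:**
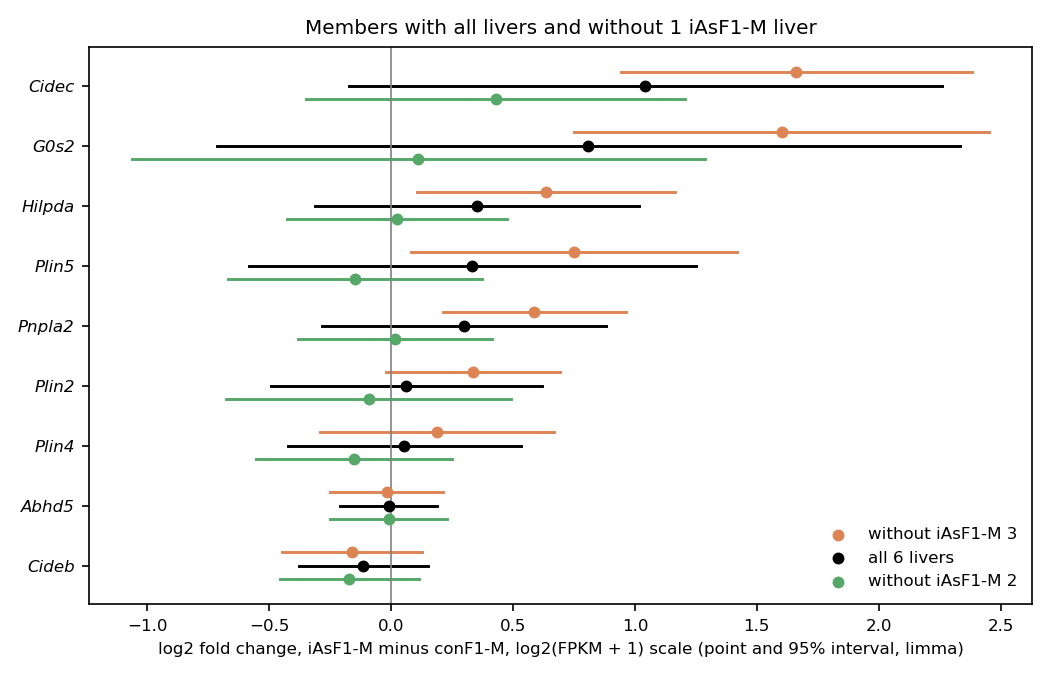
Log2 fold change (iAsF1-M minus conF1-M, log2(FPKM + 1) scale) of the 9 genes with its 95% interval from limma, with all 6 livers, without iAsF1-M 3 and without iAsF1-M 2. With all livers each interval crosses 0, and Cidec stands at 1.66 where iAsF1-M 3 is left out, and at 0.43 where iAsF1-M 2 is.

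The transcripts that answer to fasting and refeeding divided the iAsF1-M livers in the same way. Pdk4, which blocks glucose oxidation in the fasted state, was at 1.04, 1.14 and 0.47 FPKM across conF1-M livers, against 2.57, 7.26 and 0.88 FPKM across iAsF1-M livers. Cpt1a, the gate of fatty acid oxidation, was at 162, 194 and 182 FPKM and at 216, 254 and 189 FPKM. Both were highest in iAsF1-M 2, as Cidec and G0s2 were. Scd1, a desaturase raised by refeeding, was at 1212, 1032 and 392 FPKM across conF1-M livers, against 323, 303 and 1157 FPKM across iAsF1-M livers. Fasn, fatty acid synthase, was at 6.91, 10.3 and 10.05 FPKM and at 5.08, 5.45 and 16.8 FPKM. Here iAsF1-M 3, the lowest of its group for Cidec, G0s2 and Plin2, was high and iAsF1-M 1 and 2 were low. None of these 4 passed the test with all livers, and their part in the result for the droplet genes was not tested.

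**Figure D4:**
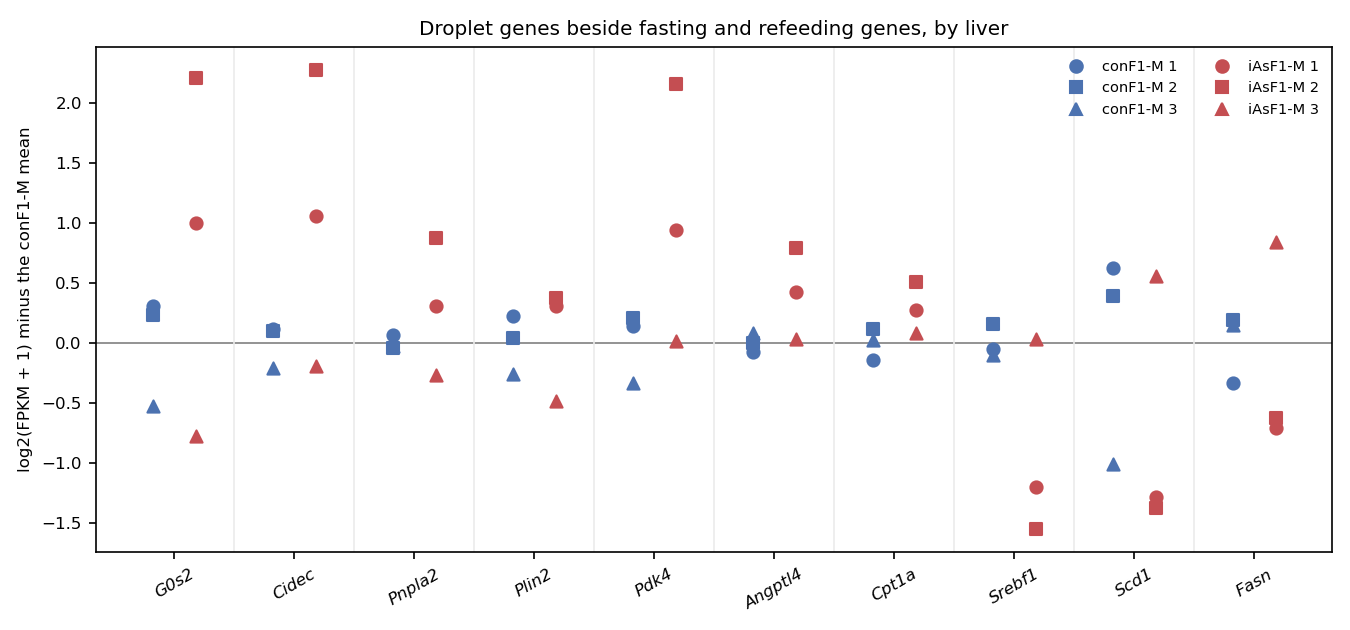
Each liver's log2(FPKM + 1) minus the conF1-M mean for 4 droplet and lipolysis genes and 6 genes that answer to fasting (Pdk4, Angptl4, Cpt1a) or refeeding (Srebf1, Scd1, Fasn). iAsF1-M 2 lies at 2.20 in G0s2 and at -1.55 in Srebf1, and iAsF1-M 3 at -0.78 and 0.03.

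The gene lists around the droplet were read in the same fit, and 0 of their 66 genes tested had an adjusted p under 0.05 with all livers, with 3 at an unadjusted p under 0.05, beside the 0.0619% and 8.17% of all genes given above. Over all genes tested 69.6% lay lower in iAsF1-M without scaling, against which the counts of higher and lower genes below are read. Of 13 PPARα targets outside the droplet, 11 lay higher in iAsF1-M, with a median log2 fold change of 0.29. For these 13 targets the median was 0.13 without iAsF1-M 2 and 0.39 without iAsF1-M 3. Angptl4, a secreted inhibitor of lipoprotein lipase, was the one with the smallest p, at 59.1 ± 3.41 FPKM (SD, n = 3) for conF1-M, against 80.8 ± 21.4 FPKM for iAsF1-M (limma, adjusted p = 0.612), and it was highest in iAsF1-M 2. Of 9 lipogenic genes raised by refeeding, 8 lay lower, with a median of -0.23, which was -0.09 without iAsF1-M 2 and -0.67 without iAsF1-M 3. Of these 8, Fasn, Pklr and Thrsp turned positive without iAsF1-M 2, at 0.06, 0.16 and 0.30, and their mean FPKM were not lower in iAsF1-M with all livers. Elovl6 was the gene of this list that lay higher, at 11.3, 12.4 and 11.4 FPKM across conF1-M livers, against 17.5, 13.0 and 13.2 FPKM across iAsF1-M livers. Its log2 fold change was 0.28 (limma, adjusted p = 0.611), and 0.35 without iAsF1-M 2 and 0.34 without iAsF1-M 3. Srebf1, the transcription factor that drives this group, was at 19.3, 22.6 and 18.7 FPKM across conF1-M livers, against 8.16, 6.20 and 20.6 FPKM across iAsF1-M livers (limma, adjusted p = 0.593). Its log2 fold change was -0.91, and the third iAsF1-M liver was at the level of the conF1-M group, as it was for Cidec. Of 10 transcription factors and coactivators that govern these genes, 4 lay higher and 6 lower, with a median of -0.10. Ppara itself was at 54.4 ± 5.02 FPKM in conF1-M, against 52.2 ± 0.197 FPKM in iAsF1-M.

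Of the lipases other than Pnpla2, 9 of 10 lay lower in iAsF1-M, beside those 69.6% of all genes, with a median of -0.16, or -0.09 after quantile scaling. Lipc, hepatic lipase, had a log2 fold change of -0.24 and Aadac, a microsomal hydrolase of the hepatocyte, one of -0.41 (limma, adjusted p = 0.616 for both). Aadac was lowest, at 237 FPKM, in iAsF1-M 2, where Pnpla2 was highest. Of 14 other lipid droplet proteins, 5 lay higher and 9 lower, with a median of -0.05, or 0.01 after quantile scaling. The closest to a difference was Hsd17b13, a droplet enzyme of hepatocytes, at 427 ± 22.5 and 487 ± 33.1 FPKM (limma, adjusted p = 0.623), and Plin3 was at 9.52 ± 0.357 and 9.25 ± 0.845 FPKM. Of 11 genes of triglyceride synthesis, 7 lay higher and 4 lower, with a median of 0.06. Mogat1, an acyltransferase, fell short of the threshold with a log2 fold change of -0.56, and Gpat3 with 0.43 (limma, adjusted p = 0.586 and 0.593). Without iAsF1-M 3, 3 of these 66 genes passed the test, beside 0.752% of 9704 genes, and all 3 were lower in iAsF1-M. They are named after their values were seen: Srebf1, Pklr and Ces1d, with log2 fold changes of -1.38, -0.93 and -0.62 (limma, adjusted p = 0.0109, 0.0306 and 0.0489).

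Other cells of the liver were followed by their markers beside these results. Plin1 and Lep, which define adipocytes, were at or below 0.020 FPKM in every liver. The summed FPKM of the 10 adipocyte markers was 29.2 to 48.1 in conF1-M and 24.4 to 37.3 in iAsF1-M, lowest in iAsF1-M 2, where Cidec was highest. That sum rested on Cd36, Fabp4, Lipe and Pparg, at 7.76, 7.49, 5.96 and 2.98 FPKM in iAsF1-M 2, so it mainly follows those genes. Adipoq, Cfd, Retn and Slc2a4 stayed below 1 FPKM in every liver, and the highest of their values was 0.89 FPKM, for Cfd in iAsF1-M 3. The sum of the 7 Kupffer cell markers was 75.9 to 89.4 FPKM in conF1-M livers and 85.4, 122 and 45.15 FPKM in iAsF1-M 1, 2 and 3, so that among iAsF1-M livers it was highest and lowest where Cidec was. Of the 7, 2 lay higher and 5 lower in iAsF1-M, with a median log2 fold change of -0.20. Marco was at 1.28, 1.60 and 1.21 FPKM across conF1-M livers, against 10.2, 28.4 and 0.82 FPKM across iAsF1-M livers. Its log2 fold change was 1.84 with all livers (limma, adjusted p = 0.616). Without iAsF1-M 2 it was 0.94 (limma, adjusted p = 0.773). Without iAsF1-M 3 it was 2.945 and passed the test (limma, adjusted p = 0.0166), beside 0.752% of 9704 genes. That liver had the least Marco of its group, so the rise in the log2 fold change was fixed by leaving it out. Clec4f, which defines Kupffer cells, was lower in every iAsF1-M liver than in any conF1-M liver, at 23.7, 21.5 and 19.2 FPKM and at 15.1, 18.7 and 12.5 FPKM. The 6 sinusoidal endothelial markers summed to 47.5 to 60.3 FPKM in conF1-M and 35.5 to 42.1 FPKM in iAsF1-M, with 4 of the 6 not overlapping between groups, beside 14.2% of all genes tested. Of these markers 4 had an unadjusted p under 0.05, beside 8.17% of genes, and 0 passed the test (limma, smallest adjusted p = 0.365). The 8 markers of stellate cells, which store retinoid in droplets of their own, summed to 78.1 to 108 FPKM and to 76.9 to 82.1 FPKM. That sum rested mainly on Dcn, at 68.3 to 93.9 FPKM in conF1-M and 67.4 to 71.6 FPKM in iAsF1-M. Of the 8, 2 did not overlap between groups, and of the 4 tested, 1 lay higher and 3 lower. Lrat was at 2.52, 3.28 and 2.59 FPKM across conF1-M livers, against 2.07, 1.22 and 2.42 FPKM across iAsF1-M livers (limma, adjusted p = 0.606). Hepatocyte markers dominated every liver, with a sum of 51595 to 55943 FPKM in conF1-M and 43971 to 60413 FPKM in iAsF1-M. That sum rested mainly on Alb, at 31682 to 37316 FPKM in conF1-M and 26548 to 40155 FPKM in iAsF1-M. Of the 8 hepatocyte markers, 5 were highest and 1 lowest in iAsF1-M 2, beside 19.8% and 20.2% of all genes tested. Tat and Cps1 were there 4.33 and 2.36 times the conF1-M mean. The part of these cells in the results for the droplet genes was not tested.

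The genes whose pattern over the 6 livers was most like that of Cidec were Siglece, Ipo4 and Wdr77, with Pearson's r of log2(FPKM + 1) of 0.996, 0.996 and 0.994. After iAsF1-M 1 and 2, the livers farthest from the median of Cidec, were set aside, r was 0.908, 0.979 and 0.981 over 4 livers. Altogether 83 genes had an r above 0.95 with Cidec, and among the droplet and lipolysis genes Pnpla2 and G0s2 did, at 0.972 and 0.966, or 0.633 and 0.976 over those 4 livers. For Plin2 the nearest were Kpna2, Etf1 and Kcnh6, at 0.986, 0.983 and 0.983, and 49 genes had an r above 0.95. With 6 livers, of which iAsF1-M 2 and 3 lie far apart, such values are descriptions of those livers. Within the group itself, Plin2 had an r of 0.884 with G0s2 and of 0.748 with Cidec, and Abhd5 of 0.299 with Plin2 and of -0.0004 with Cidec. Those of Abhd5 were -0.448 and 0.779 over the 4 livers left when the farthest from the median of Plin2 or Cidec were set aside, and for Plin2 with G0s2 and Cidec r was then 0.817 and 0.820.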

How the data were processed

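Liver RNA of 6 refed F1 males was analysed, with groups and replicate numbers from the sample labels. The authors prepared libraries with a TruSeq kit, sequenced paired ends, filtered reads, aligned them to GRCm38 with HISAT2 and called genes with DESeq2. The deposited values are FPKM, rounded to 2 decimals, and the program and annotation behind them are not given in the sources used here. Of 16743 identifiers, 16 on 2 lines were left out. Symbols and positions came from GENCODE M21 (GRCm38) and promoters from RefSeq (GRCm38.p6). No columns of other samples were present.

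FPKM are not counts. Low values came out whole, to within 0.15 of a fragment, in 44.3% to 54.0% of cases (30% by chance), and no counts could be recovered. Estimated depths were 20400000 to 22300000 fragments, and 1190 to 2230 genes per liver were listed at 0. Values of log2(FPKM + 1) were compared for genes whose mean FPKM reached 1, with limma 3.58.1 in R 4.3.3 (lmFit, eBayes with a trend), two-sided, with Benjamini-Hochberg adjustment over all genes tested, a threshold of 0.05 and no block. The fit was tested on simulated data. Tables and figures used Python 3.11.15, pandas 2.3.3 and matplotlib 3.10.9.

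The members, lists, tests and alternatives were chosen with earlier results of these data known. All 10 members are named; of each other pathway list the 2 to 4 genes with the smallest p could be named, with the 3 genes most like Cidec and Plin2, and Scd1, Fasn, Cpt1a and Pdk4 by liver. Pklr, Ces1d, Thrsp, Ppara and Plin3 were added after their values were seen. The list of PPARα targets had 13 of its 14 genes in the table, and the other was not analysed here. A gene of the lipogenic list is not reported here and was taken out of that list's counts. The ratio of Pnpla2 to G0s2 carries no test. Alternatives were 2 other pseudocounts, 3 other filters, quantile and median-ratio scaling, eBayes without a trend or robust, library weights, a replicate block and leaving out each liver.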

Additional observations from a re-analysis of the deposited data

How the results depend on the processing

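Under all 17 alternatives 0 members passed the threshold. Of 152 member values 141 kept their direction, and 11 turned. The filters, the eBayes settings and the replicate block cannot change a log2 fold change, so their values were bound to keep direction. All 11 turns came with a scaling or with a liver left out. Members had adjusted p-values from 0.0641 to 0.998. Without iAsF1-M 3, 5 of the 9 had an unadjusted p under 0.05, beside 1642 of 9704 genes tested. With library weights 1 of the 9 did, beside 1135 of 9695 genes, and with the replicate block below 1 did, beside 781 of 9695. Abhd5 turned to 0.051 with quantile normalization and 0.0606 with median-ratio scaling, and ran from -0.0682 to 0.0343 when single livers were left out. Leaving out single livers gave -0.0928 to 0.34 for Plin2, -0.15 to 0.19 for Plin4 and -0.15 to 0.75 for Plin5, against 0.43 to 1.66 for Cidec and 0.11 to 1.60 for G0s2. The difference in the ratio of Pnpla2 to G0s2 was -0.158 with all livers. It ranged from -0.375, with iAsF1-M 3 left out, to -0.0104, with iAsF1-M 2 left out, and leaving out conF1-M 3 gave -0.0182. Over all genes, 6 passed with all livers, 3 with no filter on low values and 3 to 73 when single livers were left out (13 for conF1-M 3 and 73 for iAsF1-M 3). For the latter, the genes of the surrounding lists that passed went from 0 to 3 (0 to 3 over the 6 fits).

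Deviations of livers that share a number had correlations of 0.167, -0.10 and -0.02, and those of livers with unlike numbers ran from -0.13 to 0.168. Such values from 3 livers per group cannot tell whether the numbers mark a shared litter or batch, which the labels do not state. With a replicate block 5 genes passed and 0 members, and Cidec had an unadjusted p of 0.0281 (limma, adjusted p = 0.58). The 3 livers of each group and their spread within iAsF1-M limit these comparisons: for Cidec and G0s2 the intervals reach above a log2 fold change of 2, and low values of Cidea and Hilpda rest on few fragments.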

Other observations

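Lpin1, whose product makes the diacylglycerol from which triglyceride is built and also coactivates PPARα in the mouse liver, gave the widest values among the genes of triglyceride synthesis. It was at 8.39, 14.7 and 21.8 FPKM across conF1-M livers, against 13.3, 114 and 33.8 FPKM across iAsF1-M livers, so iAsF1-M 2 stood apart here too, but iAsF1-M 3 was second and not lowest. Its log2 fold change was 1.36 (limma, adjusted p = 0.616), and 0.58 without iAsF1-M 2. Pparg, the nuclear receptor of adipocytes that raises Cidec and Cidea in the fatty mouse liver, was at 5.65 ± 1.27 FPKM (SD, n = 3) for conF1-M, against 4.60 ± 1.54 FPKM for iAsF1-M, and was lowest in iAsF1-M 2 at 2.98 FPKM, the liver with the most Cidec.

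Fgf21, a hormone that the fasted liver secretes under PPARα, was at 2.81, 1.85 and 1.47 FPKM across conF1-M livers, against 4.88, 13.0 and 0.82 FPKM across iAsF1-M livers (limma, log2 fold change 0.83, adjusted p = 0.694). That is the same order of iAsF1-M livers as in Cidec, G0s2, Plin2, Plin4, Plin5, Pnpla2 and Hilpda. Pparg and Fgf21 were chosen after their values were seen.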
